A study of Caenorhabditis elegans with 3 samples.

Results

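The fatty acid desaturases and elongases of the nematode Caenorhabditis elegans are the enzymes that put double bonds into fatty acids and lengthen their chains. The members are the genes with the symbols fat-1 to fat-7, elo-1, elo-2 and elo-5, and 8 of the 10 had a probe of their own (5 of 7 desaturases and all 3 elongases) among 15159 genes tested. The platform annotation used here listed no probe for fat-1 (Y67H2A.8) or fat-6 (VZK822L.1), so these genes were not analysed here. Each measured member had 1 probe, with a value on every array. No sequence is shown, because no table of sequences for these genes or probes was used here.

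The data came from 2-colour DNA microarrays that compared RNA of early L4 hermaphrodites with a wild-type mixed reference. L4 is the last larval stage, in which hermaphrodites form sperm and have yet to make oocytes. The 3 worm preparations form 1 group; each was hybridised once, as channel 2, against the reference as channel 1. The labels give no strain, temperature, food or age in hours for the early L4 worms, and do not say what was mixed into the reference.

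Each value is a log2 ratio of the channels, centred on the median of its array, so 0 is the level of the median probe. The sign is read as early L4 over reference. That reading is likely, since the descriptions name early L4 first, but no source used here states which channel is the numerator. The 3 arrays had 19841 to 19905 values each and correlated positively across 15128 genes (Pearson's r between 0.643 and 0.809), which describes arrays that share a reference and a layout. Under this reading, 8 of 10 sperm markers were higher (median log2 ratio 1.97) and 8 of 9 oocyte markers were lower (median -2.34). Markers of the intestine, the main site of fat synthesis and storage in the worm, were higher for 7 of 9 genes (median 1.49). Of 8 epidermal markers, 3 were higher (median 0.65), the cuticle collagen genes rol-6, sqt-3 and dpy-13. The collagen gene dpy-7 (0.66) did not pass, nor did elt-3 (-0.67), vha-5 (-0.47), che-14 (0.64) and lin-26 (0.21).

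As background, the worm makes its polyunsaturated fatty acids (PUFAs) itself. FAT-5, FAT-6 and FAT-7 place the first double bond in a saturated chain: FAT-5 acts on palmitic acid, and FAT-6 and FAT-7 act mainly on stearic acid to give oleic acid. FAT-2 turns oleic into linoleic acid, FAT-1 adds the double bond nearest the methyl end, and FAT-3 adds one on the carboxyl side, giving gamma-linolenic and stearidonic acid. ELO-1 lengthens the products of FAT-3, and FAT-4 then makes arachidonic and eicosapentaenoic acid. ELO-2 lengthens palmitic acid, and ELO-5 builds the branched-chain fatty acids that the worm needs to grow. Electrons for desaturation come from cytochrome b5 and its reductase.

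The desaturases and the elongases among the measured members lay on opposite sides of the array median by their mean ratios. All 5 measured desaturases had a mean log2 ratio below 0, and 3 of them, the PUFA desaturases fat-2, fat-3 and fat-4, were lower in early L4 than in the reference by limma (threshold of 0.05 on the p adjusted over all genes). The same call was made for 10.1% of all genes. All 3 elongases had a mean above 0, and elo-1 and elo-2 were higher, a call made for 12.6% of genes. In both directions together, 22.7% of genes passed. The members were chosen with earlier results of these data known, so their counts are described beside these shares and not tested against them. The median over the 8 members was -0.53, beside -0.01 over all genes tested, and the members reached from -3.42 to 1.14. Lower RNA per cell and fewer cells expressing a gene cannot be told apart in RNA of whole worms. The intestinal markers moved in the opposite direction to the PUFA desaturases, and the oocyte markers in the same direction, with medians of -1.97, -2.12 and -2.22 on the arrays of preparations 1, 2 and 3; their part in the result was not tested.

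**Figure D1:**
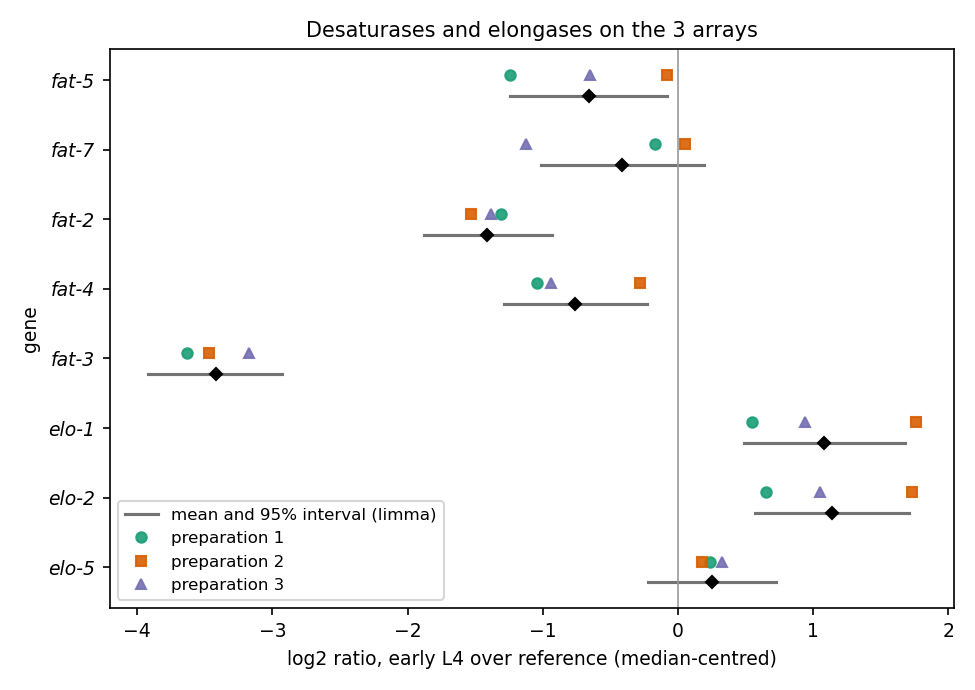
Median-centred log2 ratio (x axis, early L4 over reference) of each measured desaturase and elongase (y axis). Coloured symbols are the arrays of preparations 1, 2 and 3, and the diamond and line below them are the mean and its 95% interval from limma. The 3 values of fat-3 lie between -3.63 and -3.17, far to the left of every other member, while elo-1 and elo-2 lie to the right of 0 on each array.

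The 2 measured genes of enzymes that make the first double bond, fat-5 and fat-7, did not pass the test. fat-5 (W06D12.3) had log2 ratios of -1.24, -0.08 and -0.65 on the arrays of preparations 1, 2 and 3. All were below 0, with preparation 2 close to it. The mean was -0.66 ± 0.58 (SD, n = 3), with a 95% interval of -1.24 to -0.08, and the adjusted p was 0.102 in limma (unadjusted p = 0.0305). The stearoyl-CoA desaturase gene fat-7 (F10D2.9) had -0.17, 0.05 and -1.12, so that preparations 1 and 2 were near the array median and only preparation 3 was clearly low. Its mean was -0.41 ± 0.62, with an interval of -1.01 to 0.19 (limma adjusted p = 0.315). That interval holds 0 as well as a clear decrease, so these data neither set fat-7 apart from the reference nor show it to be equal. fat-6 and fat-7 are close copies, and whether the fat-7 probe also reads fat-6 RNA was not tested.

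By mean ratio, the measured PUFA desaturases were the lowest members, with fat-4 (-0.76) only a little below fat-5 (-0.66). On single arrays fat-4 was not always below the others. fat-5 was lower than fat-4 on preparation 1 (-1.24 against -1.04), and fat-7 on preparation 3 (-1.12 against -0.94). fat-2 (W02A2.1), which makes linoleic acid, had -1.31, -1.53 and -1.38. The arrays were close together (SD 0.11), and all were far below 0. The mean of -1.41 corresponds to 2.65-fold less RNA than in the reference (interval -1.88 to -0.93, limma adjusted p = 0.0014), and 441 of the 15159 genes had a lower mean.

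fat-3 (W08D2.4), the enzyme of gamma-linolenic and stearidonic acid, had -3.63, -3.47 and -3.17. No array came near 0, and the lowest single value of any other member was -1.53, for fat-2. Its mean of -3.42 ± 0.23 (SD, n = 3; interval -3.92 to -2.93) is a 10.7-fold difference, or 0.0931 of the reference, with an adjusted p of 2.53e-05 in limma. Only 20 genes tested had a lower mean ratio. With the channels read the other way, fat-3 would be 10.7-fold higher with 20 genes above it, and fat-2 2.65-fold higher with 441 above it. That reading would also make most sperm markers lower and most oocyte markers higher in early L4. fat-4 (T13F2.1), which acts last, on the elongated products of the FAT-3 branch, had -1.04, -0.28 and -0.94. Preparation 2 was the nearest to 0, as it was for fat-5. The mean was -0.76 ± 0.41, a 1.69-fold difference (interval -1.29 to -0.23), and the limma adjusted p of 0.046 was just under the threshold. The call was lost without preparation 1 (adjusted p = 0.0927), without preparation 3 (0.209) and with trend and robust settings (0.0542).

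**Figure D2:**
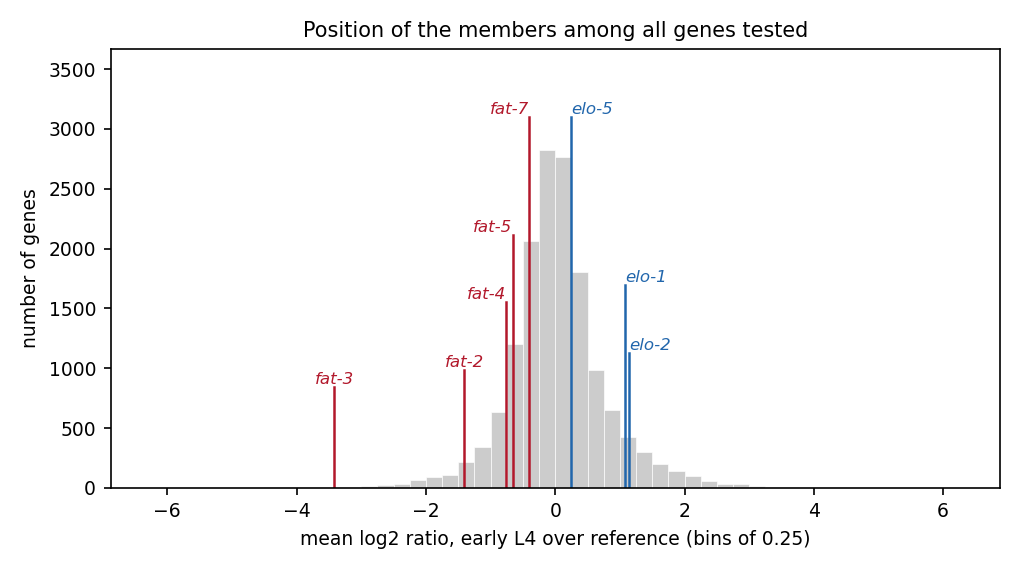
Number of genes (y axis, grey bars) by mean log2 ratio (x axis, bins of 0.25) for the 15159 genes tested, with the desaturases in red and the elongases in blue. The height of a coloured line carries no value. fat-3 stands in the far left tail, with 20 genes below it, whereas fat-7 and elo-5 stand within the bulk of the genes.

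In the RefSeq gene table of assembly WBcel235, fat-3 and fat-4 are neighbours, with 0 annotated protein-coding genes between their start points. Their ratios to the reference differed on every array. fat-4 exceeded fat-3 by 2.58, 3.19 and 2.23 log2 units on the arrays of preparations 1, 2 and 3, a mean of 2.67 ± 0.49 (SD, n = 3). fat-2 exceeded fat-3 by 2.32, 1.95 and 1.79 (mean 2.02 ± 0.27). The gap between fat-4 and fat-2 was smaller, at 0.27, 1.24 and 0.43 (mean 0.65 ± 0.52), though of 1 sign. These are differences between ratios to the reference, not between amounts of RNA, which probes of different genes do not give.

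Of the 12 pairs within a class, 7 could be compared, and 5 of these had 1 sign on all 3 arrays. An exact two-sided sign-flip permutation test with 3 arrays cannot give a p below 0.25, which these 5 pairs reached (adjusted over the 7 pairs, 0.35). The order fat-3, fat-2, fat-4 held on each array, and fat-5 and fat-7 had no stable order: fat-7 minus fat-5 was 1.07, 0.14 and -0.47 (mean 0.25 ± 0.77, exact permutation p = 0.75), and the mean turned to -0.16 without preparation 1.

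**Figure D3:**
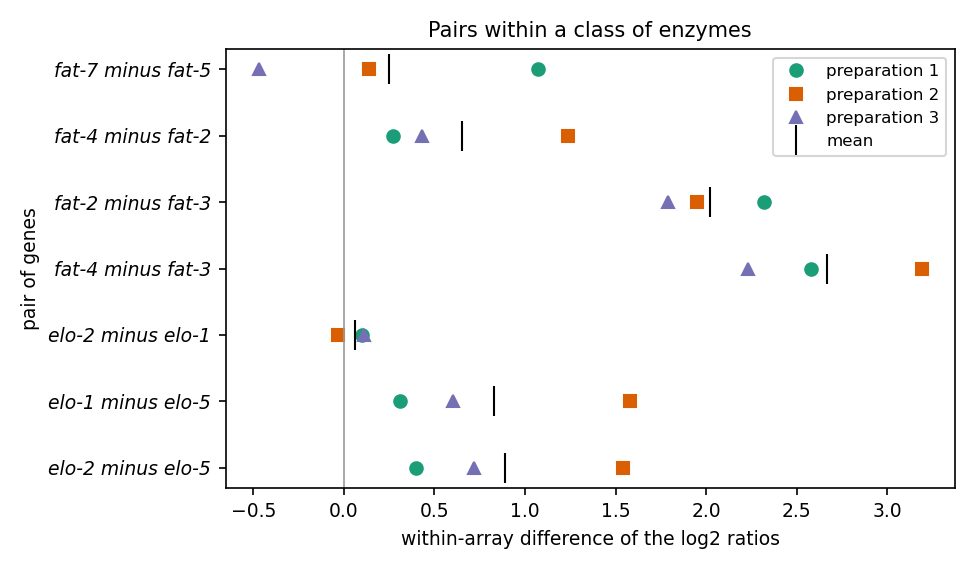
Difference between the log2 ratios of 2 genes of a class on the same array (x axis), for each of the 7 pairs measured (y axis). Symbols are the 3 arrays and the vertical tick is their mean. Both pairs with fat-3 lie between 1.79 and 3.19, elo-2 minus elo-1 lies near 0, and fat-7 minus fat-5 has arrays on both sides of 0.

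The elongases of the PUFA and straight-chain branches were higher. elo-1 (F56H11.4), which lengthens the products of FAT-3, had 0.55, 1.76 and 0.94, with preparation 2 the highest. The mean of 1.08 ± 0.62 (SD, n = 3; interval 0.49 to 1.68) is a 2.12-fold difference with an adjusted p of 0.0164 in limma. elo-2 (F11E6.5), which lengthens palmitic acid, had 0.65, 1.73 and 1.05, in the same order of arrays. Its mean was 1.14 ± 0.54 (interval 0.57 to 1.71), a 2.21-fold difference (limma adjusted p = 0.0104). elo-2 minus elo-1 was 0.1, -0.03 and 0.11, so the pair could not be told apart on any array by more than 0.11. Both calls rest on preparation 2: without it the means were 0.74 for elo-1 (adjusted p = 0.166) and 0.85 for elo-2 (adjusted p = 0.1).

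elo-5 (F41H10.7), the branched-chain elongase, had 0.24, 0.18 and 0.33. The arrays were close together (SD 0.08), and all lay slightly above the median. The mean of 0.25 did not pass (interval -0.22 to 0.73, limma adjusted p = 0.441). This interval overlaps those of elo-1 and elo-2, which start at 0.49 and 0.57, though its upper end is below their means. elo-1 exceeded elo-5 by 0.31, 1.58 and 0.6, and elo-2 exceeded it by 0.4, 1.54 and 0.72.

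On each array every measured desaturase had a lower ratio than elo-1, elo-2 and elo-5, the elongases among the members. The closest approach was on the array of preparation 2, where fat-7 at 0.05 stood below elo-5 at 0.18. The mean over these elongases exceeded that over the desaturases by 1.96, 2.29 and 2.23 on the arrays of preparations 1, 2 and 3. The split did not extend to every other elongase. On the array of preparation 3, elo-4 at -0.8 stood below fat-5 at -0.65. Preparation 2 gave the highest value for 5 of the 8 members and preparation 1 the lowest for 5, where 32.8% of all genes were highest on preparation 2 and 40.8% lowest on preparation 1. The median of the intestinal markers was also highest on preparation 2, at 2.03, against 1.16 and 1.2 on the other arrays. Among these markers, act-5 and pept-1 were instead lowest on preparation 2, and elt-2 was highest on preparation 3. The fat storage genes also had their highest median on preparation 2 (-0.31, 0.74 and -0.03 on preparations 1, 2 and 3). The sperm markers had their lowest median there (1.8, 1.41 and 2.0). The part of any tissue in the spread of elo-1, elo-2, fat-4 and fat-5 was not tested.

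The other elongases had no call below 0. Of 6 listed, 4 were measured, and 1 rose: elo-7 (F56H11.3), whose neighbour in the gene table is elo-1, had 2.82, 2.01 and 1.88. Every array of elo-7 was above every array of elo-1, and its mean of 2.24 ± 0.51 (SD, n = 3) exceeded that of each elongase named by the rule. elo-6, which works with ELO-5 on branched chains, had 0.38, 0.89 and 0.57 (mean 0.61 ± 0.25) and did not pass, though it did without preparation 1 (0.73, limma adjusted p = 0.0358). elo-3, at 0.37 ± 0.73, and elo-4, at -0.10 ± 0.65, had arrays on both sides of 0. Over the 7 measured elongases together, 3 rose and none fell, with a median of 0.61. Of all genes, 12.6% were called higher and 10.1% lower. Among the calls of the elongases, those of elo-1 and elo-2 were lost without preparation 2.

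The genes that supply or remove substrate, or act in the elongation cycle, were called only in part. Of 6 measured genes of fatty acid synthesis, of malonyl-CoA removal and of the elongation cycle, 2 rose, 1 fell and 3 did not pass (median 0.59). Of all genes, 12.6% were called higher and 10.1% lower. Those that did not pass were acly-2 (0.3 ± 0.37), hpo-8 (0.04 ± 0.19) and pod-2. The fatty acid synthase fasn-1 had 0.82, 1.84 and 1.01 (mean 1.22 ± 0.54), and the ATP citrate lyase acly-1 had 1.19, 0.93 and 1.35 (mean 1.16 ± 0.21). fasn-1, like elo-1 and elo-2, lost its call without preparation 2 (limma adjusted p = 0.0709). The acetyl-CoA carboxylase pod-2 had -0.63, 2.01 and 1.27, arrays on both sides of 0, and did not pass; its mean was 0.88, but 1.64 without preparation 1 (adjusted p = 0.00315, a call) and 0.32 without preparation 2. mlcd-1, a malonyl-CoA decarboxylase that removes the substrate of elongation, fell, with a mean of -0.75 ± 0.37; it lost its call without any 1 of the 3 preparations (adjusted p between 0.055 and 0.186) and with trend and robust settings (0.0528).

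**Figure D4:**
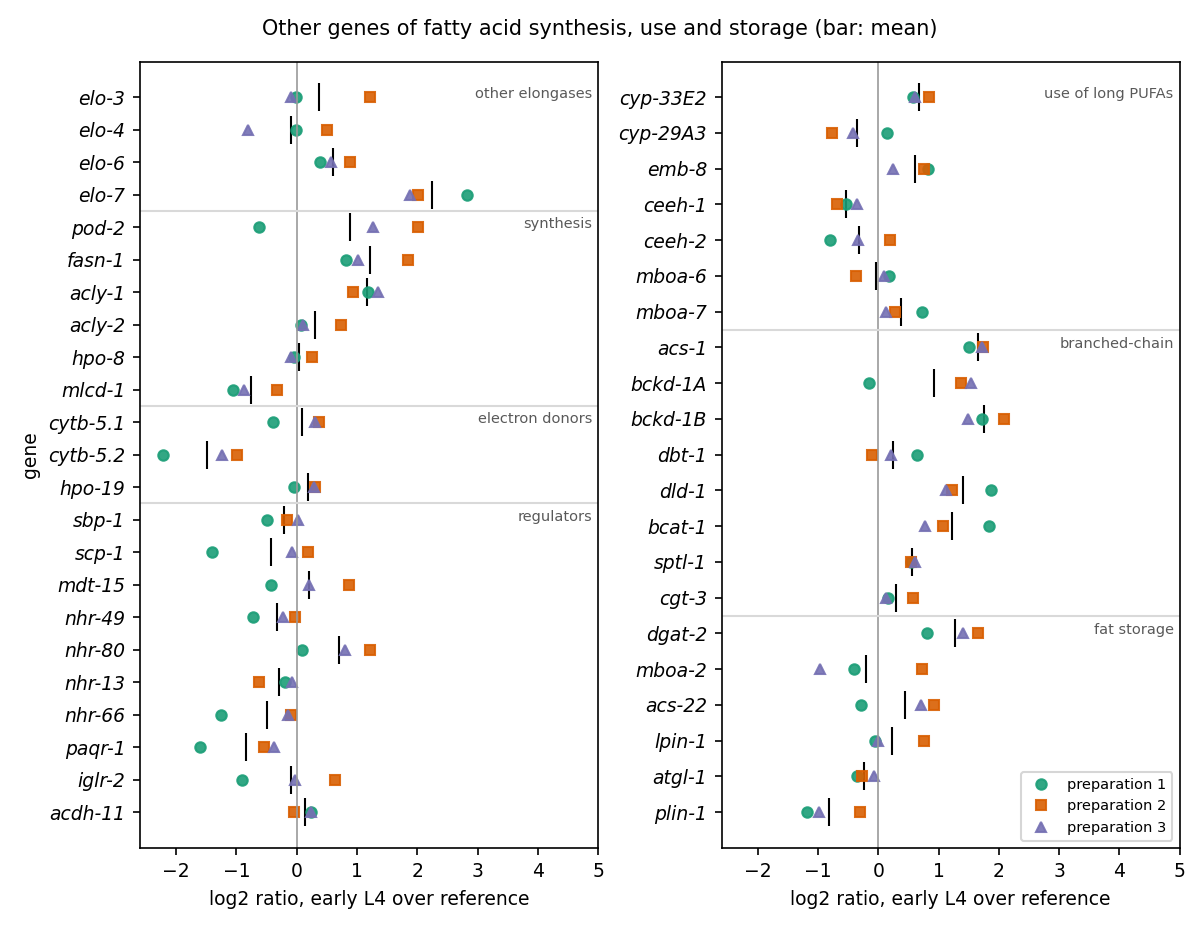
Median-centred log2 ratios (x axis, early L4 over reference) of the measured genes of the pathway lists (y axis, grouped by list). Symbols are the arrays of preparations 1, 2 and 3, and the vertical tick is their mean. elo-7, acs-1, bckd-1B and dld-1 lie at 1.12 or above on every array, and cytb-5.2 lies at -0.99 or below on every array. The regulators lie on both sides of 0, with paqr-1, nhr-49, nhr-13 and nhr-66 below it on every array and nhr-80 above it.

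Of 3 electron donors, 1 fell, where 10.1% of all genes were called lower. The donor that fell was cytb-5.2, a cytochrome b5, with -2.21, -0.99 and -1.24 on the 3 arrays (mean -1.48 ± 0.64, SD, n = 3). The other cytochrome b5, cytb-5.1, had 0.09 ± 0.42 and the cytochrome b5 reductase gene hpo-19 had 0.18 ± 0.19; neither passed.

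None of the 10 measured genes on the list of lipid regulators passed in limma, where 22.7% of all genes did, and the median of this list was -0.25. At an unadjusted p under 0.05 there were 2, nhr-80 and paqr-1. nhr-80, a nuclear receptor that drives the stearoyl-CoA desaturase genes, had 0.09, 1.21 and 0.81 (mean 0.70 ± 0.57; 1.01 and called higher without preparation 1, adjusted p = 0.0117), and paqr-1, related to adiponectin receptors, had -1.61, -0.54 and -0.37 (mean -0.84 ± 0.67). paqr-1 was called lower with the ratios as deposited (adjusted p = 0.0355), after quantile normalization (0.0242) and without preparation 2 or 3 (0.0483 and 0.0189). The transcription factor sbp-1 had -0.21 ± 0.26, the Mediator subunit mdt-15 0.21 ± 0.65 and the nuclear receptor nhr-49 -0.32 ± 0.37. The RNA of a regulator does not measure its activity.

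Of 8 measured genes that supply or use branched-chain fatty acids, 4 rose, 4 did not pass and none fell; the median was 1.07 (12.6% of all genes were called higher). This list, too, was chosen with earlier results of these data known, so its count is only described. acs-1, an acyl-CoA synthetase of branched-chain fatty acids, had 1.51, 1.74 and 1.72 (mean 1.66 ± 0.12, SD, n = 3). Of 4 subunits of the dehydrogenase that makes the branched primer, 2 rose: bckd-1B had 1.76 ± 0.30 and dld-1, which other dehydrogenases share, had 1.41 ± 0.40. The other two did not pass: bckd-1A had -0.15, 1.37 and 1.53 (limma adjusted p = 0.0699) and dbt-1 had 0.25 ± 0.38 (adjusted p = 0.498). The aminotransferase bcat-1, the step before it, had 1.23 ± 0.55. These 4 genes kept their calls in all 8 alternatives run on them.

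Over the 7 pathway lists, 44 of 50 genes were measured, of which 9 rose (20.5%), 3 fell (6.82%) and 32 did not pass, beside 12.6% and 10.1% of all genes. The lists were chosen with earlier results of these data known, so these shares are a description and no test against all genes. Of 7 genes that use or place long PUFAs, 1 rose, the cytochrome P450 gene cyp-33E2 (0.67 ± 0.15, SD, n = 3), and the median was -0.04; cyp-33E2 lost its call in 4 of 8 alternatives (limma adjusted p between 0.0528 and 0.314). Of 6 genes of fat storage, the acyltransferase dgat-2 rose (1.28 ± 0.44), the lipid droplet perilipin plin-1 fell (-0.82 ± 0.47), and 4 did not pass. plin-1 lost its call without preparation 1 (limma adjusted p = 0.0844) or 3 (0.15).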

How the data were processed

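The data were 3 arrays in 1 group, 2-colour, with 20000 probes. The authors deposited log2 ratios, whose medians were 0.054, -0.082 and -0.025 on the 3 arrays; at least 99.96% per array were logs of ratios in whole thousandths (within 0.01 of a thousandth). The sources used here do not name the dyes, the scanner, the background correction, the normalization or the genome build, so no coordinates are printed.

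Probes were named from the platform annotation (dated, with 15655 probes of 1 gene symbol, 198 of several and 4147 of none), updated through the RefSeq table of WBcel235: 15569 matched by gene number and 86 by symbol. Spots of 1 gene were averaged. Each array was centred on the median of all its probes, and genes with values on at least 2 arrays entered a limma fit (version 3.58.1, R 4.3.3; lmFit, eBayes) of the mean ratio against 0, two-sided. The prior had 7.59 degrees of freedom, p-values were adjusted by Benjamini-Hochberg over 15159 genes, and the threshold was 0.05. The fit was tested on simulated data. Errors are SDs over arrays, and only 3 arrays limit the precision. The test leaves out the reference's own spread, and as no label speaks of separate cultures, the spread it uses may be technical. Early L4 was channel 2 on all 3 arrays, so a channel effect of a probe cannot be told apart from a difference in RNA.

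Named were all members, genes of the pathway lists and, for the highest and lowest member, the 3 class-named genes nearest over the arrays. The members and lists were chosen with earlier results of these data known. The alternatives tried were no centring (ratios as deposited), quantile normalization, only genes on all 3 arrays, trend and robust eBayes, each probe on its own, and leaving out each preparation; centring on the median of the named genes, and all settings for pathway genes, were added after seeing the data.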

Additional observations from a re-analysis of the deposited data

How the results depend on the processing

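No member changed direction in the alternatives run, and 67 of 72 such results kept direction and side of the threshold; those that did not were fat-4 (with trend and robust settings -0.76, adjusted p = 0.0542 in limma; with 1 preparation left out -0.99 to -0.61), elo-1 (0.74 to 1.35) and elo-2 (0.85 to 1.39). The members called higher numbered 0 to 2 and those called lower 2 to 3 with 1 preparation left out, and the lowest number of higher calls was without preparation 2. fat-3 (-3.55 to -3.32) and fat-2 (-1.45 to -1.35) kept their calls in every alternative run. Genes past the threshold numbered 3444, and 2423 to 3958 in the alternatives. With 1 preparation left out, 20 of 21 pair differences kept their sign, the other being fat-7 minus fat-5 (-0.16 to 0.60). Among pathway genes, 10 that did not pass changed sign when 1 preparation was left out: elo-3 (-0.05 to 0.60), elo-4 (-0.40 to 0.25), hpo-8 (-0.07 to 0.10), cytb-5.1 (-0.05 to 0.33), scp-1 (-0.73 to 0.06), mdt-15 (-0.12 to 0.53), iglr-2 (-0.47 to 0.30), mboa-6 (-0.14 to 0.13), mboa-2 (-0.68 to 0.16) and lpin-1 (-0.03 to 0.38). Without preparation 1, elo-6, pod-2, nhr-80, bckd-1A (1.45, adjusted p = 0.00234 in limma) and acs-22 (0.81, adjusted p = 0.0221) gained a call; bckd-1A also did after quantile normalization (0.97, adjusted p = 0.0295). Each member has 1 probe, so fitting each probe on its own changed only the other probes, and it gave the pairs no further value. No pairing of samples between groups was possible because all samples belong to a single group. The limits set by signal over background were not examined, since the table holds ratios without intensities.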

Other observations

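The genes closest to the highest and lowest members were found by Euclidean distance over the 3 centred log2 ratios among 9211 other class-named genes measured on all arrays. Nearest to elo-2, the highest member, were let-418, a chromatin remodeller (0.62, 1.81 and 1.09 on the arrays of preparations 1, 2 and 3, distance 0.10), cln-3.3 (distance 0.13) and elo-1 (distance 0.15). Nearest to fat-3, the lowest member, were far-7, of the fatty acid and retinol binding class (-3.53, -3.13 and -3.43, distance 0.44), the collagen gene col-158 (-3.75, -3.64 and -3.81, distance 0.67) and ule-1 (-3.17, -3.36 and -3.67, distance 0.69), whose class takes its name from the uterine lumen. With 3 arrays, such a distance mostly measures likeness of the mean ratio.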
